A study of Homo sapiens with 3 samples.

Results

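The THAP zinc finger factors are represented here by 10 human genes, THAP1 to THAP8, THAP10 and THAP11, out of 19974 protein-coding genes annotated by RefSeq on GRCh38.p14. They were chosen by their MYC peaks, since the family had come to attention for being bound throughout in the same deposited list. Each gene was given all peaks whose summit lay inside its annotated span or within 5000 bp of it, which yielded 11 of the 9818 peaks of the list. Everything measured at these peaks comes from the contrast that chose the genes, so it is given as a description with no test.

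ChIP-Rx, in which foreign chromatin is added to an immunoprecipitation as a standard for scaling, was used to map MYC in parental U2OS, a human osteosarcoma cell line. Of the 3 libraries 2 are anti-MYC immunoprecipitates, which the design text calls biological replicates, and 1 is input, sequenced without immunoprecipitation. All of them came from U2OS cells with no drug or genetic change named, mixed with 10% mouse NIH3T3 fibroblasts after fixation in 1% formaldehyde for 10 min. The sources name 1 cell line, 1 antibody and no cells lacking MYC. The values are those of 1 peak list for the whole series, with no value for a single library, so the depth is unknown, no fold has a replicate error, and 2 neighbouring genes in an order of folds cannot be said to differ or not.

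THAP proteins carry at their amino end an atypical zinc finger that binds DNA and is shared with the transposase of the Drosophila P element. Several of them, THAP1, THAP3 and THAP11 among them, recruit the cofactor HCF-1, a scaffold for chromatin-modifying enzymes that MYC itself also binds. THAP1 is mutated in an inherited dystonia, and THAP11, called Ronin in the mouse, is needed by mouse embryonic stem cells. MYC pairs with MAX on E-boxes, short DNA sequences of which the palindrome CACGTG is the canonical form.

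All 10 THAP genes had a peak at an end of the gene. A summit lay inside or within 5000 bp of 10 of 10 genes, against 47.7% of all protein-coding genes, and within 1000 bp of an annotated end of 10 of 10, against 37.6%. The genes were chosen for this, so nothing is read from either count. The 10 genes lie on 10 different chromosomes and no peak served more than 1 of them. Each had exactly 1 peak within 1000 bp of an end, called its own peak below, and THAP11 had a further one.

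The own peaks were mostly of middling height. At the summit the authors give a fold enrichment, the linear ratio of IP to control, and it ran over 3.51 at THAP6, a median of 7.25 and 16.4 at THAP5. Bound protein-coding genes, those with a summit within 1000 bp of an end, had a median fold of 8.31 at their strongest peak, with quartiles of 5.87 and 12.6. Of the 10 THAP genes 4 exceeded that median. Their −log10 q-values, the authors' measure of significance at the summit, had a median of 66.3 and reached 175, while bound genes had a median of 55.9, and here 6 of the 10 lay above. The highest fold in the list was 119.

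**Figure D1:**
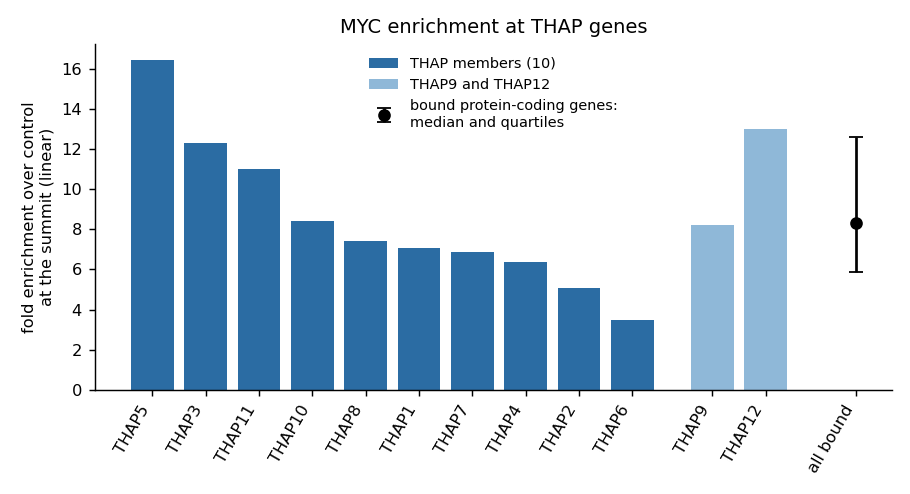
Authors' fold enrichment over control at the summit (linear axis) of the own peak of each of the 10 THAP genes, sorted by fold, followed by THAP9 and THAP12 and by the median and quartiles of the strongest peak of all 7510 bound protein-coding genes. THAP5, THAP3, THAP11 and THAP10 lie above the median of 8.31, and THAP6 and THAP2 lie below the lower quartile of 5.87.

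THAP5 had the strongest peak of the family on both measures. The protein has been linked to cell death in heart cells. Its gene (GeneID 168451) spans chromosome 7 from 108541759 to 108569768, and the peak, from 108569050 to 108570388, was the widest of the family at 1339 bp. With fold 16.4 and −log10 q 175 it exceeded 85.7% of bound genes by fold and 86.8% by −log10 q. The fold was 4.66 times that of THAP6, the lowest member.

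THAP3 and THAP11, which both act with HCF-1, came next by fold. The THAP3 gene (GeneID 90326) lies on chromosome 1 from 6624868 to 6635595, and its peak, from 6625071 to 6625668, reached a fold of 12.3 with −log10 q 73.2. At 598 bp it was the narrowest own peak of the family. The THAP11 gene (GeneID 57215), the shortest of the 10 at 1876 bp, lies on chromosome 16 from 67842320 to 67844195. Its own peak, from 67841915 to 67842636, had an 11.0-fold enrichment and a −log10 q of 62.1. The additional THAP11 peak, from 67846422 to 67847520, had a fold of 8.61 and the higher −log10 q of 81.5. It belongs by position to other genes, with its summit 95 bp from the start of NUTF2, a nuclear import factor for Ran, 855 bp from that of CENPT, a kinetochore protein, and 2643 bp outside THAP11.

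THAP10, THAP8 and THAP7 lay between folds of 8.41 and 6.89, as did THAP1, described last. The THAP10 gene (GeneID 56906; chromosome 15, 70881342 to 70892433) had a peak from 70892182 to 70892819 of fold 8.41 and −log10 q 73.7. For THAP8 (GeneID 199745; chromosome 19, 36034984 to 36054762) the peak ran from 36054173 to 36055289, with fold 7.43 and −log10 q 70.5. THAP7, a corepressor that binds histone tails and recruits HDAC3 and NCOR1, is encoded on chromosome 22 from 20999104 to 21002118 (GeneID 80764). Its peak, from 21001457 to 21002682, had a fold of 6.89 and the second highest −log10 q of the family, 93.0.

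THAP4, which joins the zinc finger to a heme-binding nitrobindin domain, had a 6.36-fold enrichment and a −log10 q of 50.1. Its gene (GeneID 51078) is the longest of the family at 53172 bp, on chromosome 2 from 241584405 to 241637576, and the peak ran from 241636972 to 241637868. The 2 weakest members were THAP6 and THAP2. At THAP6 (GeneID 152815; chromosome 4, 75513908 to 75547328) the peak from 75514013 to 75514869 had fold 3.51 and −log10 q 18.0, above only 2.34% of bound genes by fold. At THAP2 (GeneID 83591; chromosome 12, 71664301 to 71680644) the peak from 71663630 to 71664486 had a fold of 5.07 and the lowest −log10 q of the family, 16.0, above 5.47% of bound genes.

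Fold and −log10 q did not order the family alike. THAP7 exceeded 36.0% of bound genes by fold and 69.6% by −log10 q, where only THAP5 among the members was higher. THAP3 went the other way, with 73.9% by fold and 60.4% by −log10 q, and its peak of 598 bp was the narrowest, whereas that of THAP7 spanned 1226 bp. THAP5 was highest on both scales, and THAP6 and THAP2 were the lowest pair on both. With 1 list, how stable either order would be between replicates was not tested.

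**Figure D2:**
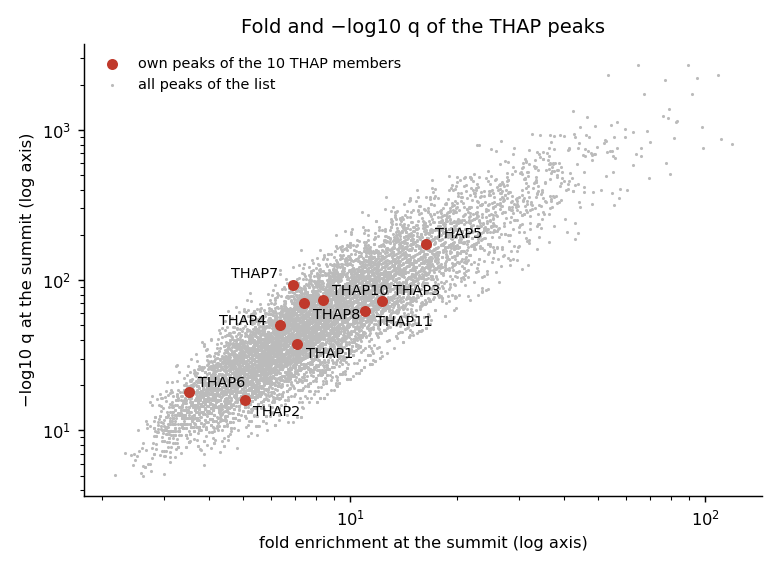
Authors' −log10 q against fold enrichment at the summit (both axes logarithmic) for the own peaks of the 10 THAP genes and, in grey, all 9818 peaks of the list. THAP5 stands apart at 16.4-fold, THAP2 and THAP6 sit at the low end with −log10 q of 16.0 and 18.0, and THAP7 (93.0) has a high −log10 q for its fold of 6.89.

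The summits lay near transcription starts, in the genes for which a start is listed. RefSeq's promoter table gives 13 starts for 9 of the 10 genes, THAP1 not being among them. A summit lay within 1000 bp of a start in 9 of 9, against 41.5% of protein-coding genes with a start in that table. The genes were chosen by their peaks, so nothing is read from this count. Distances to the nearest start ran over 0, a median of 103 and 483 bp, beside a median of 126 bp (quartiles 46 and 268) for the 6560 protein-coding genes with a summit in that range. In each of the 9 genes the nearest start lay inside the peak. The summit lay upstream of that start in 6 genes and at or downstream of it in 3.

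The exact position differed from member to member. At THAP5 the summit fell on 1 of the gene's 3 listed starts. At THAP7, THAP6 and THAP10 it lay 34, 55 and 84 bp upstream of the start. At THAP11 and THAP3 it lay 103 and 215 bp downstream of the nearest start, and at THAP3 the other listed start, 315 bp further upstream, lay outside the peak. At THAP8, THAP2 and THAP4 it lay 218, 266 and 483 bp upstream. The annotated span of THAP4 reaches past its listed start, so that the same summit was only 65 bp outside the gene.

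**Figure D3:**
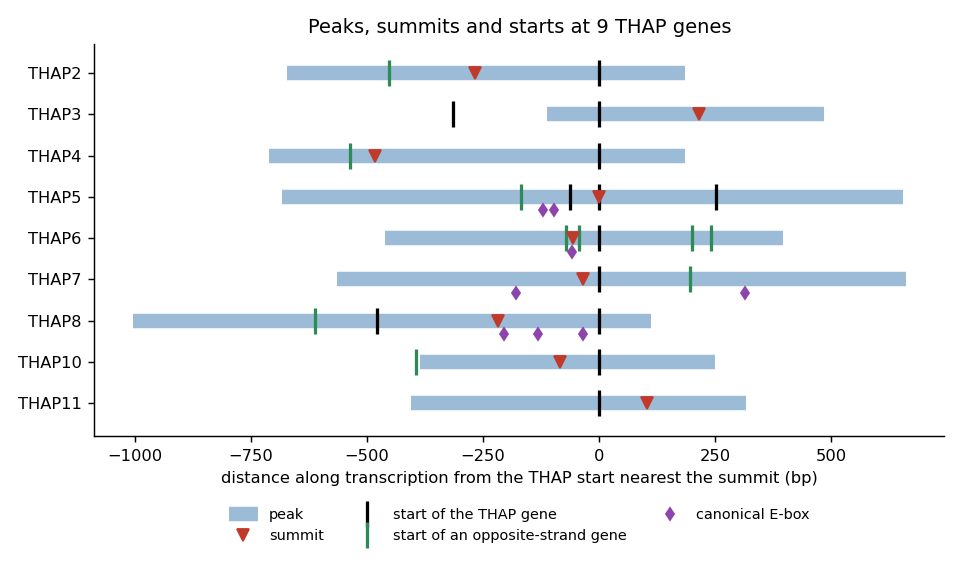
Position of the own peak (bar) and its summit (triangle) at the 9 THAP genes with a listed start, in bp along transcription from the start nearest the summit, with the starts of the THAP gene in black, starts of opposite-strand genes in green and canonical E-boxes found in promoter sequence as diamonds. Summits range from 483 bp upstream at THAP4 to 215 bp downstream at THAP3, and peaks at THAP2, THAP4, THAP5, THAP6, THAP7 and THAP8 also cover an opposite-strand start.

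Most THAP promoters face another gene. An opposite-strand protein-coding start lay within 1000 bp in 6 of the 9 genes with a listed start, whereas 13.6% of the 15812 protein-coding genes in the table have one. The THAP genes were chosen by their peaks, and such starts are more frequent among bound genes. Of the 6560 protein-coding genes with a summit within 1000 bp of a start, 1577 have one. All 6 had a summit within 1000 bp of a start, as had 73.5% of the 2147 genes of this head-to-head kind. The 3 THAP genes without one had such a summit too, as had 36.5% of the 13665 other genes. Since the family was chosen for being bound throughout, nothing is read from these counts of summits. Bound head-to-head genes had a median fold of 8.86 and bound genes without an opposite start one of 8.22. In the family the order was the other way round, with a median fold of 6.90 in the 6 head-to-head genes and 11.0 in the 3 others, which are THAP3, THAP7 and THAP11. Whether the facing genes have a part in the family's binding was not tested.

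The partners are of unlike function. DNAJB9, an endoplasmic reticulum cochaperone, starts 106 bp from the nearest of the THAP5 starts, and the shared summit lay 168 bp from the DNAJB9 start. RCHY1, a ubiquitin ligase for p53, starts 43 bp from THAP6, with the summit 12 bp from the nearest RCHY1 start. WDR62, a spindle pole protein, starts 135 bp from the nearer of the 2 listed THAP8 starts. The THAP8 summit lay between these 2 starts, 259 bp from the one facing WDR62 and 218 bp from the other. The WDR62 start was farther from the summit, at 394 bp. At THAP2 the summit was nearer to ZFC3H1, a nuclear RNA decay factor (187 bp), than to THAP2 (266 bp), and at THAP4 it was nearer to the autophagy protease gene ATG4B (52 bp) than to the listed THAP4 start (483 bp). A peak shared in this way cannot be assigned to 1 of the 2 genes from its position.

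THAP10 and LRRC49 start 393 bp apart, but the LRRC49 start lay just outside the THAP10 peak and no annotated end of LRRC49 lay within 1000 bp of the summit. By annotated ends the own peak was therefore shared with another protein-coding gene in 5 of 10 THAP genes, against 33.0% of bound protein-coding genes. THAP7 faces a noncoding gene, THAP7-AS1, whose start lies 196 bp inside THAP7, and its peak covered both starts.

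Sequence at the summits was read from RefSeq's promoter table (GRCh38.p14), in windows from 250 bp before to 50 bp after a start. The windows of THAP5, THAP6, THAP7 and THAP8 are shown because they hold a canonical E-box. That of THAP10 is shown because its summit lies inside the window, yet none of the E-box forms searched does. Each is written 5′ to 3′ along the gene, with CACGTG in capitals. They lie at chr7:108569657-108569956 (THAP5, minus strand), chr4:75514223-75514522 (THAP6, plus strand), chr22:21002069-21002368 (THAP7, minus strand), chr19:36054236-36054535 (THAP8, minus strand) and chr15:70892384-70892683 (THAP10, minus strand).
THAP5: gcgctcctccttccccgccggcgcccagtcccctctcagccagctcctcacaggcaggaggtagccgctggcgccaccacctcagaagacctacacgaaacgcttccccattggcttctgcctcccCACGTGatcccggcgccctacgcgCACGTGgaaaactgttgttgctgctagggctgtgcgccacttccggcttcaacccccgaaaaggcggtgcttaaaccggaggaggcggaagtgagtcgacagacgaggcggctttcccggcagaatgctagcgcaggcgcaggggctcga
THAP6: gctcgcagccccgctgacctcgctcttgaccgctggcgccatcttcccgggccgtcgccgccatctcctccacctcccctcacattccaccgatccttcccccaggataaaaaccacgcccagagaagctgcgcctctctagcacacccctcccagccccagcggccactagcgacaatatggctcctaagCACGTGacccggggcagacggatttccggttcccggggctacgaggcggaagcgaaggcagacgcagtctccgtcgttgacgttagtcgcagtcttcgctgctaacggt
THAP7: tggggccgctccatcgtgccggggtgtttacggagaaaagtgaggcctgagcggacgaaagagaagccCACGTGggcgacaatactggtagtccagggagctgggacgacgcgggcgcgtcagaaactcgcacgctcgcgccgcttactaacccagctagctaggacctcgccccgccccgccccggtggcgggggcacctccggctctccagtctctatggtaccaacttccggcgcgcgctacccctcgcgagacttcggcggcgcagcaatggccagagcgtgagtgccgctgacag
THAP8: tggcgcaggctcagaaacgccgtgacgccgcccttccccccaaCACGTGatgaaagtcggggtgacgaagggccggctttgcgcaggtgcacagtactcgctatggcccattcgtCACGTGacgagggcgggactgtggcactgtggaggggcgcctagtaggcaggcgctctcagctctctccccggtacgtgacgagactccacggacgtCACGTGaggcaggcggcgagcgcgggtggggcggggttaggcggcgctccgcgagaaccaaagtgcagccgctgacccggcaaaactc
THAP10: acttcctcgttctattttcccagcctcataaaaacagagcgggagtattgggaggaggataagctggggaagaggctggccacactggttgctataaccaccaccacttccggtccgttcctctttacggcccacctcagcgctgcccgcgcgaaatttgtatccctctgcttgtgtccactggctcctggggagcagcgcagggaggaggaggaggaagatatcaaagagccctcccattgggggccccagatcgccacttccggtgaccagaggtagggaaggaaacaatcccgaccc

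The distance from the E-box to the summit varied widely. The single site of THAP6, the member with the lowest fold, had its centre 1 bp from the summit. THAP8 held 3 sites, at 13, 85 and 182 bp from the summit. The 2 sites of THAP5, the member with the highest fold, lay 97 and 121 bp away, both between its start and that of DNAJB9. THAP7 had 1 site 145 bp from the summit and another 347 bp away on the far side of its start, read from the THAP7-AS1 window at chr22:21001802-21001807 and shown here with its flanks along THAP7.
THAP7 second site: gccgcgggctCACGTGcgcatgcgct

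In the 670 protein-coding windows of 300 bp that hold both a CACGTG and a summit, the site centre was a median of 26 bp from the summit, with quartiles of 10 and 72 bp. The window caps these distances, whereas the 8 THAP sites were read from every window over the peak, and the one at 347 bp could not occur in the 670 windows, so the 2 sets are not alike. Of the 8 sites 2 lay within 26 bp of the summit, 1 each at THAP6 and THAP8. The base before and the base after a site differed too: 2 of the 8 sites, both of THAP8, were flanked by T and A as TCACGTGA, as were 14.2% of 1848 sites in protein-coding windows.

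The remaining 5 peaks with a promoter window held no canonical E-box in the sequence read. Counting every promoter window of any gene that overlaps an own peak, between 27.1% of the peak (THAP3) and 75.5% (THAP6) could be read in the 9 genes, and the summit base itself in 7 of them. CACGTG was found in 4 of the 9 peaks. Of the related forms searched, CACGCG was found at THAP2 and THAP7, CATGCG at THAP7 and CACGAG at THAP11, where the match lay 323 bp from the summit. None of these forms, nor CATGTG, was found at THAP3, THAP4 or THAP10, which had folds of 12.3, 6.36 and 8.41. At THAP3 and THAP11 the summit base was outside the sequence read.

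Set beside all promoters, 4 of the 9 nearest windows held CACGTG, against 8.34% of 22132 protein-coding windows, 17.0% of the 3937 windows with a summit inside and 6.16% of the 13847 with no summit within 1000 bp of the start. CACGCG was found in none of the 9 (14.2% of all windows), as were CATGCG (7.92%) and CATGTG (8.93%), and CACGAG in 1 (7.38%). ACTACA, part of the element that THAP11 and ZNF143 share, was found in none (7.94% of all windows). The GC box GGGCGG was found in 6 (56.3% of all windows), and 1 pair of its matches overlapped, in THAP7. Among the 3937 windows with a summit inside, CACGCG was found in 25.7%, CATGCG in 13.5%, CATGTG in 6.22% and CACGAG in 11.8%. ACTACA was found in 11.0% of these windows and GGGCGG in 74.6%. Motifs were searched on both strands, and a match of letters is not a measured site.

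The THAP promoters were not all alike in base composition. The ratio of observed to expected CpG in the nearest window ran over 0.521 at THAP10, a median of 0.953 and 1.10 at THAP4, whereas all protein-coding windows had a median of 0.738 and those with a summit inside one of 0.892. The quartiles of this ratio were 0.681 and 1.02, against 0.352 and 0.901 in all windows and 0.796 and 0.985 in those with a summit. GC content had a median of 67.0%, from 51.3% at THAP2 to 79.3% at THAP4, against 62.3% in all windows and 66.7% in those with a summit. Its quartiles were 64.3% and 69.0%, closer together than in all windows (53.0% and 70.0%) or in those with a summit (61.0% and 72.3%). THAP2, with the lowest −log10 q, had the lowest GC content, and THAP10 the lowest CpG ratio.

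The remaining THAP-domain genes of the annotation, THAP9 and THAP12, also had a summit within 1000 bp of an end, as had 37.6% of all protein-coding genes. All 12 THAP-domain genes named here thus had one. The family was chosen for being bound throughout, so nothing is read from this count. THAP9, a human relative of the P element transposase, is annotated on chromosome 4 from 82900735 to 82919969. Its peak, from 82900340 to 82901318, was 8.19-fold over control at a −log10 q of 96.6. The summit lay 192 bp downstream of the THAP9 start, 11 bp from that of the noncoding THAP9-AS1 and 358 bp from that of SEC31A, which encodes a COPII coat protein. THAP12, a regulator of the interferon-induced kinase PKR, lies on chromosome 11 from 76349956 to 76381132, with a peak from 76380268 to 76381579, 13.0-fold enrichment and −log10 q 104. Its summit lay 587 bp from a THAP12 end and 778 bp from an end of GVQW3. Of 13 annotated THAP pseudogenes, 0 had a summit inside or within 5000 bp. The share over all pseudogenes was not counted, so nothing is read from this number. How well reads map to such copies was not analysed here.

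Genes for HCF-1 and for partners of HCF-1 or of THAP proteins were bound in most cases. Of 18 genes for HCF-1, its partners and other THAP partners, 15 had a summit within 1000 bp of an end, against the 37.6% of all protein-coding genes. The fold of the 15 ran from 5.11 to 22.6, with a median of 11.0. Limited to the stronger 50% of peaks by −log10 q, the count was 10 of 18, beside 21.3% of protein-coding genes. With a window of 500 bp it was 11 of 18, beside 33.0%. ZNF143, a factor that binds with THAP11, had a fold of 14.4 (−log10 q 175), OGT, the sugar transferase that cleaves HCF-1, one of 16.2 (134) and HCFC1, which encodes HCF-1, one of 15.0 (131). The 3 not called were WDR5, whose nearest summit was 1100 bp from an end, HDAC3 (1591 bp) and PAWR (37267 bp). This list and those below were chosen with earlier results of the same data known.

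Reported targets of THAP1 and THAP11 had a summit within 1000 bp of an end in 5 of 5 cases, beside 37.6% of all protein-coding genes. In the stronger 50% of peaks by −log10 q 4 of the 5 had one, beside 21.3%. TOR1A, itself a dystonia gene, had a fold of 14.3 (−log10 q 101), the proteasome gene PSMB5 one of 12.7 (92.9), and MMACHC, a cobalamin enzyme gene, one of 9.81 (84.0). RRM1, a ribonucleotide reductase subunit gene, had a fold of 8.66 (86.6) and SHLD1, a shieldin subunit gene in DNA repair, one of 4.41 (22.3). Whether THAP proteins occupied these sites in U2OS was not measured.

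Other gene families are set beside the 37.6% of all protein-coding genes with a summit within 1000 bp of an end. Of 33 further genes derived from transposases, 20 (60.6%) had a summit at an end, with a median fold of 9.61. Those with the highest −log10 q were SETMAR (341, fold 30.6), TIGD7 (252, fold 19.1) and CGGBP1 (201, fold 14.5). ZBTB genes, another family of zinc finger factors, reached 18 of 41 (43.9%) with a median fold of 7.80. ZNF genes of chromosome 19 reached 83 of 246 (33.7%) with a median fold of 6.90. Both of these shares were near that of all protein-coding genes. The THAP genes were chosen by their binding, and the ZNF and ZBTB families were added with the data seen, so the shares are set side by side with no test.

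**Figure D4:**
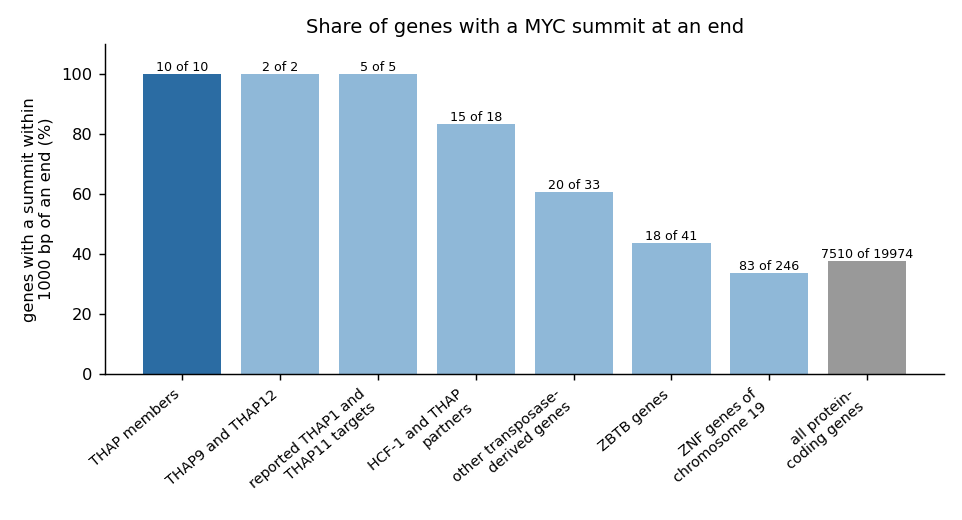
Share of genes (%) with a MYC summit within 1000 bp of an annotated end, with the counts above the bars, for the 10 THAP genes, which were chosen by their binding, 6 other lists and all protein-coding genes. The share falls through 83.3% in HCF-1 and THAP partners and 60.6% in transposase-derived genes to 33.7% in ZNF genes of chromosome 19, beside 37.6% of all protein-coding genes.

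THAP1, the dystonia gene, lies on chromosome 8 from 42836674 to 42843325 (GeneID 55145). Its peak, from 42842607 to 42843575, was 7.07-fold over control at a −log10 q of 37.7, above 37.9% and 32.5% of bound genes. The summit lay 58 bp outside the higher-numbered end of the gene and 449 bp from an end of the noncoding LOC124901940. By fold 5 of the 10 THAP genes were higher, and by −log10 q 7 were.

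Few peaks lay near the limit of 5000 bp. The farthest peak inside it was the one at NUTF2, 2643 bp from THAP11, with a fold of 8.61, and the nearest one outside was at TMEM19, 5417 bp from THAP2, with a fold of 8.32. For the other 9 genes the next summit lay between 11371 bp (THAP3) and 125831 bp (THAP6) away.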

How the data were processed

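Per the labels' protocols, sonication gave fragments of 200 to 500 bp, and 5 ng entered each library, amplified over 9 cycles. MACS2, Bowtie2, cutadapt, Picard and SAMtools appear in the submitters' processing notes, as do the builds hg38, hg19 and mm10, all without settings. The sources used here do not give how IP libraries were pooled or mouse reads used. The 1 list the authors deposited gives for each peak a fold enrichment over control (a linear ratio), a −log10 p-value, a −log10 q-value and a score, all as deposited. Fold and −log10 q were used.

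Summits were set against RefSeq genes of chromosomes 1 to 22 and X (GRCh38.p14) in Python 3.11.15 with pandas 2.3.3, and 9 of the 10 members matched RefSeq's promoter table. A bound gene takes its strongest peak by −log10 q. Values are described by counts, medians and ranges, since no replicate values allow a test. Alternatives were windows of 500, 5000 and 10000 bp, peaks limited to the stronger 50% or to −log10 q of at least 10, peak bases in place of summits, and choice by fold. Planned protein features were not analysed here. Members and lists were chosen with earlier results of these data known, and the families of ZNF and ZBTB genes were added after the data were seen. All members were named, with neighbours at their peaks. Of the partner, target and transposase lists the 3 genes with the highest −log10 q were named, all if 5 or fewer, and those not called if 5 or fewer. The ZNF and ZBTB families are given by their counts.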

Additional observations from a re-analysis of the deposited data

How the results depend on the processing

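In the stronger 50% of peaks (−log10 q of at least 47.8) 7 of the 10 THAP genes had a summit within 1000 bp of an end, beside 21.3% of protein-coding genes. THAP1, THAP2 and THAP6 were the ones without. The median fold of the strongest peaks was then 8.41, against 7.25 with all peaks, since weaker peaks were left out. The count of members whose peak also lay at another protein-coding gene was 5 of 10, beside 33.0% of bound protein-coding genes. It became 3 of the 7 members left in the stronger 50% of peaks, and 8 of 10 with a window of 5000 bp. The share over all bound genes was not counted at these other settings. With a window of 500 bp 8 THAP genes had a summit at an end, beside 33.0% of protein-coding genes, THAP3 and THAP6 being the ones whose annotated end was farther away. In the families added later, the stronger 50% of peaks left 32 of the 83 ZNF genes of chromosome 19 and 8 of the 18 ZBTB genes. Over all protein-coding genes the same limit left 4248 of the 7510 bound ones. Of THAP9 and THAP12, a window of 500 bp left 1. The other 49 of 55 settings moved a count by no more than 1.5 times and no median. No paired analysis was possible because the list holds no values of single libraries, and for the same reason no replicate could be left out.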

Other observations

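The surroundings of the THAP genes differed in how many other peaks they held. Within 100000 bp of the gene, THAP4 had 7 peaks and 7 other protein-coding genes, while THAP6 had 1 peak, its own, and 4 other protein-coding genes. THAP8 and THAP11 each had 5 peaks among 11 other protein-coding genes. The highest of the next-nearest peaks lay 17103 bp from THAP7, between LZTR1, an adaptor of a ubiquitin ligase that acts on RAS proteins, and AIFM3, with 22.4-fold enrichment and −log10 q 508, above every own peak of the family. The next peak beyond THAP1 lay 53971 bp away, with ends of RNF170 and HOOK3 within 1000 bp of its summit and a fold of 6.66.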
